A study of Mus musculus with 15 samples.

Results

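The comparison described here is the knockout effect in striatum minus the knockout effect in cortex, that is (striatum KO minus striatum WT) minus (cortex KO minus cortex WT), taken gene by gene from RNA-seq of mouse brain. All 15 libraries of the series entered it, and all 17030 of the 26595 listed genes with a normalized count of 10 or more in at least 3 libraries were tested. Tissue came from C57Bl/6 males at an age of 5 months, and the genotypes were wild type (WT) and SLC1a4 -/- (KO, also labelled ASCT1-KO). The groups were cortex WT (n = 4), cortex KO (n = 4), striatum WT (n = 4) and striatum KO (n = 3). The labels do not say which part of the gene was deleted or whether replicates came from separate animals, so p-values measure the spread between these samples, which may in part be technical. Libraries held 22990233 to 30276815 reads assigned to genes, with the cortex libraries at 26791109 or more and the striatum libraries at 25697792 or fewer. Striatum WT replicate 5 and striatum KO replicate 4 stood apart from the other striatum libraries by high levels of choroid plexus genes, and KO replicate 4 also by low levels of striatal neuron markers. Summed markers of thalamus, septum, pallidum and hypothalamus were highest in striatum WT replicate 8 (80904) and striatum KO replicate 4 (105905). The other striatum libraries held 31163 to 44097 of them. A positive value in the text below means that the KO level, relative to WT, was higher in striatum than the same ratio in cortex. Differences are on the log2(normalized count + 1) scale, which understates changes of genes with low counts, and a gene was called at a Benjamini-Hochberg adjusted p below 0.05 in limma.

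Slc1a4 encodes ASCT1, a sodium-dependent exchanger of serine, alanine and other small neutral amino acids found in astrocytes and neurons. Cortex and striatum differ in their principal neurons, which are glutamatergic pyramidal cells in cortex and GABAergic projection neurons in striatum, and pyramidal cells of the cortex send their axons into the striatum. A difference between the knockout effects of both tissues can arise from a change in striatum, a change in cortex, or opposite changes in each.

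The deleted gene was lower to a like extent in both tissues. Slc1a4 (chromosome 11) was at 1592, 1613, 1797 and 1494 normalized counts in the cortex WT libraries and at 252, 308, 249 and 251 in the cortex KO libraries. In striatum it was at 1237, 1660, 1726 and 1509 in the WT libraries and at 344, 311 and 158 in KO replicates 2, 3 and 4. WT and KO levels did not overlap in either tissue, and the library labels and the transcript therefore pointed the same way in all 15 libraries. The KO minus WT difference was -2.61 in cortex (adjusted p = 1.2e-05) and -2.56 in striatum (adjusted p = 2.3e-05). Their difference was 0.05 (SE 0.28, adjusted p = 0.998), which is smaller than its error. The sign of this small value changed with the library set, from -0.16 without striatum KO replicate 2 to 0.40 at the other end.

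The region around the start of Scube1, the single gene that passed the test, is shown here. Scube1 (ENSMUSG00000016763) lies on the minus strand of chromosome 15, at chr15:83604999-83725021 in GRCm38, and no other gene of GENCODE M21 overlaps it. RefSeq holds 1 promoter entry for it in GRCm38.p6, chr15:83724990-83725289, which runs from 250 bases before the transcript start to 50 bases after it. The capitals mark the only GC box match.
Scube1: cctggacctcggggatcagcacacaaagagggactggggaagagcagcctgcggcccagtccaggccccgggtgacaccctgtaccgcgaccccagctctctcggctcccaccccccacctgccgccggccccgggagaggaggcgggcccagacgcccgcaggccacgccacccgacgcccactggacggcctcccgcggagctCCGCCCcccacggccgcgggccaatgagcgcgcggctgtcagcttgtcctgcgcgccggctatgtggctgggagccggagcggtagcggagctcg
This stretch has a GC content of 75.0%, against a median of 52.67% over 32851 promoter entries of the same length. The GC box, GGGCGG on either strand, was found 1 time in it and is present in 35.66% of all entries. Searched on both strands, the E-box CAGATG (in 17.15% of entries), the cAMP response element TGACGTCA (1.79%) and TATAAA (13.62%) had no match in this window. RNA levels do not bear on any of these letters directly, and a match is a description of sequence only.

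Of the 17030 genes, Scube1 alone was called for the difference between the tissues, which is 0.00587% of those tested, and it was called in the positive direction. Scube1 encodes a secreted and cell-surface glycoprotein with epidermal growth factor-like repeats and a CUB domain, of a family known for aiding the release of lipid-modified Hedgehog proteins. In cortex it was at 2191, 2234, 2071 and 1968 normalized counts in the WT libraries and at 2293, 1965, 2150 and 2133 in the KO libraries. In striatum it was at 139.9, 124, 167 and 171 in WT replicates 5 to 8 and at 517, 440.2 and 725 in KO replicates 2 to 4. The cortex groups overlapped fully, whereas the lowest KO striatum library lay above the highest WT striatum library. Non-overlap of the striatum groups was seen in 8.07% of all genes, with KO higher in 3.96% and lower in 4.12%, and non-overlap of the cortex groups in 4.02%.

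**Figure D1:**
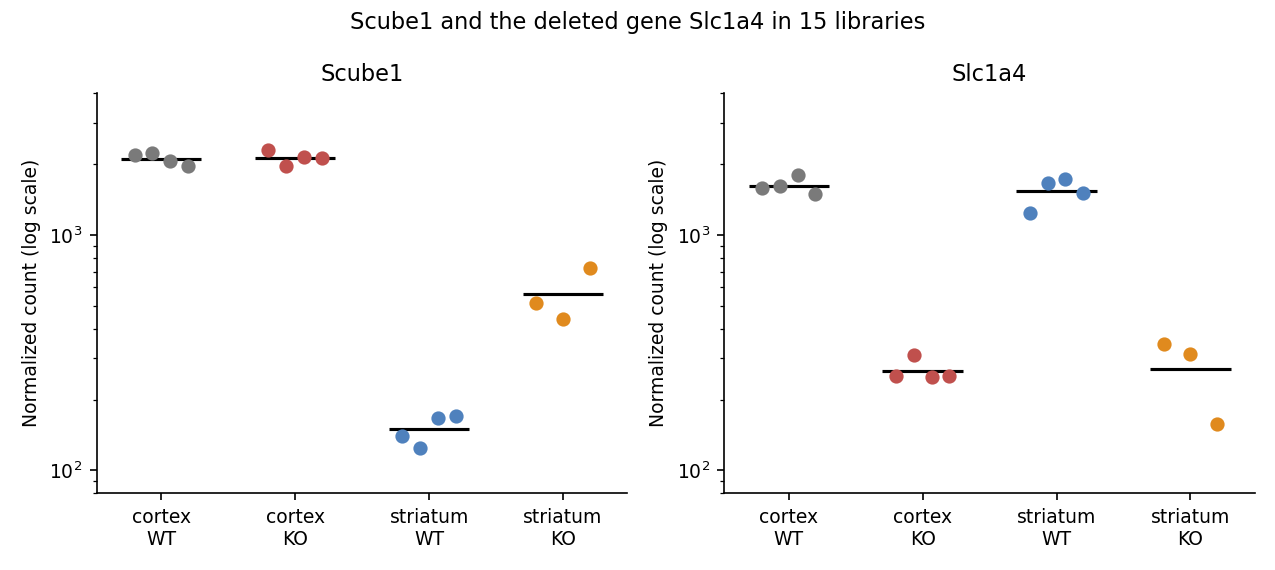
Normalized counts (log axis) of Scube1, left, and of the deleted gene Slc1a4, right. Each point is a library and each bar the mean of its group (cortex WT, cortex KO and striatum WT, n = 4; striatum KO, n = 3). Scube1 was between 1965 and 2293 in all cortex libraries and separated WT (124 to 171) from KO (440.2 to 725) in striatum, and Slc1a4 was lower in KO in both tissues.

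The KO minus WT difference of Scube1 was 1.87 in striatum (SE 0.14, limma adjusted p = 2.3e-05) and 0.01 in cortex (SE 0.13). The difference between these effects was 1.86 (SE 0.19, 95% confidence interval 1.45 to 2.27, limma adjusted p = 0.0017). With genotype labels exchanged within each tissue in 2450 arrangements, an exact permutation test (two-sided) gave p = 0.0163; its null is that the knockout has no effect in either tissue. Scube1 was picked for its value in this contrast, so this unadjusted p is no support beyond the adjusted one. On the linear scale the striatal mean went from 150.4 ± 22.4 (SD, n = 4) to 561 ± 147 (SD, n = 3), while the cortical means were 2116 ± 120 and 2135 ± 134 (SD, n = 4 each). The difference between the tissues in normalized counts was 391 (SE 124). Scube1 thus rose 3.73-fold in KO striatum and remained, in those libraries, at 20.8% to 34.3% of the WT cortex mean, against 5.86% to 8.06% in WT striatum. Over 32 other ways of processing, the value of the contrast ran from 1.63 to 2.02 and was called in 31; with the replicate number as a fixed block it was 1.89 (adjusted p = 0.129). It was 1.66 without striatum KO replicate 4 and 1.63 without that library and striatum WT replicate 5 together.

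The step from Scube1 to the next gene was wide. The next in rank of p was Gm9954, a predicted transcript on the opposite strand to Nwd2, with a value of 1.05 and an adjusted p of 0.733. No gene was called in the negative direction by limma, where 328 had an unadjusted p below 0.05 (1.93%). edgeR and limma-voom on reads recovered from the deposited values each called 1 gene in all, and DESeq2 called 15, every one positive. Without striatum KO replicate 4, limma called 8 genes, all positive; without it and WT replicate 5 the count was 19 (1 negative), and without it and WT replicate 8 it was 26 (6 negative). Scube1 was called in each of these 3 sets. At an unadjusted p below 0.05, 834 genes (4.9% of those tested) passed, of which 506 were positive (2.97%). The median standard error of the contrast was 0.18 on the log2 scale, and within-group spread was larger in striatum (median residual SD 0.21) than in cortex (0.13).

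**Figure D2:**
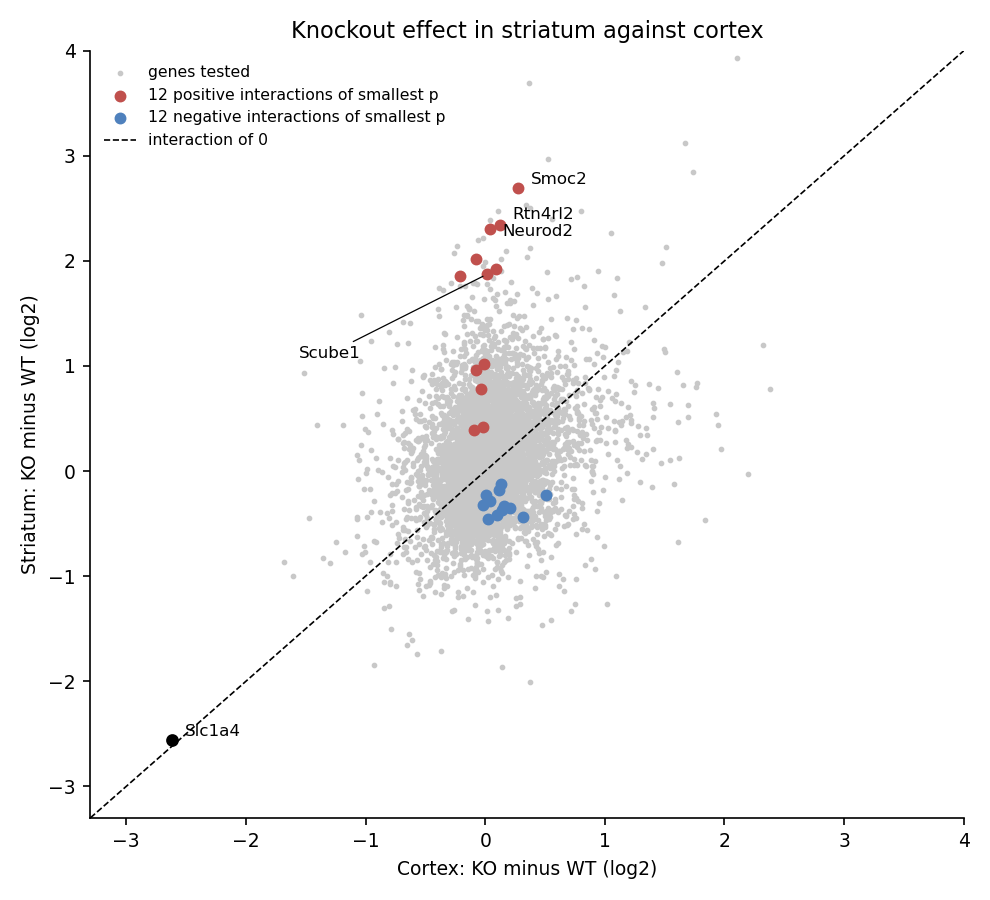
KO minus WT difference in striatum (vertical, log2) against that in cortex (horizontal, log2) for the 17030 genes tested (grey). The 12 positive (red) and 12 negative (blue) genes of smallest p are marked, and the dashed line is a contrast of 0; Slc1a4 (black) sits on it at -2.61 and -2.56, and Scube1 at 0.01 and 1.87.

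The 12 named genes with the smallest p in the positive direction shared a pattern of levels. In every one, WT striatum was below WT cortex, the KO libraries of striatum lay above all its WT libraries, and the cortex groups overlapped. Apart from Scube1, none was called for the contrast (adjusted p from 0.952 to 0.961), although some were called for KO against WT within striatum, where 13 of 17030 genes passed (0.0763%), 12 of them higher in KO (0.0705%). Within cortex, Slc1a4 alone was called (0.00587%). At an unadjusted p below 0.05, KO against WT gave 2598 genes in striatum (15.3%) and 427 in cortex (2.51%). The chosen genes are those of smallest p in the contrast, so their agreement in direction follows in part from how they were selected.

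Nptxr, Rtn4rl2 and Slc30a3 encode proteins known from neuronal membranes. Nptxr, the neuronal pentraxin receptor, which takes part in clustering AMPA receptors, was at 2501, 2741, 3360 and 4225 in WT striatum and at 7539, 6322 and 5409 in KO striatum, against 17173 to 24431 in all cortex libraries. Its KO minus WT difference was 1.02 in striatum (adjusted p = 0.028) and -0.01 in cortex, with a contrast of 1.03 (SE 0.22). Its locus overlaps that of Npcd on the same strand, so part of its count is uncertain, as is that of Polr3gl below, which overlaps Gm16253. Rtn4rl2, a Nogo receptor family protein, was at 14.8, 13.2, 59.5 and 38.2 in WT striatum and at 174, 120.0 and 119.6 in KO striatum, with a contrast of 2.22 (SE 0.50). Slc30a3, the zinc transporter of glutamatergic synaptic vesicles, was at 33, 54.9, 84.1 and 142 in WT striatum and at 449, 255 and 192 in KO striatum, with a contrast of 2.096 (SE 0.49). The gene Slc30a3 overlaps Dnajc5g on the opposite strand. In all 3, every KO striatum library was higher than every WT one, and no adjusted p of the contrast was below 0.952.

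Neurod2, Mapk11, Arhgef25 and Polr3gl act inside the cell, in transcription or signalling. Neurod2, a transcription factor of cortical glutamatergic neurons, was at 33, 36.6, 107 and 73.1 in WT striatum and at 420.4, 137 and 369 in KO striatum, against 1690 to 2145 in cortex. KO replicate 3 was nearest to WT. Its contrast was 2.26 (SE 0.52), and it rose in KO striatum by 2.30 (adjusted p = 0.03). Mapk11, the beta isoform of p38 kinase, had a contrast of 1.04 (SE 0.25), and Arhgef25, an exchange factor for small GTPases, one of 0.44 (SE 0.10). Polr3gl, a subunit of RNA polymerase III, was at 208 to 233 in WT striatum and 262 to 325 in KO striatum, with a contrast of 0.48 (SE 0.12). Of these 4 genes, Neurod2 alone was called for KO against WT in striatum.

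Nwd2 and Ptchd2 followed Scube1 in rank among the named genes. Nwd2 was at 111, 236, 202 and 192 in WT striatum and at 507, 527 and 1182 in KO striatum, against 1130 to 1844 in cortex. Its contrast was 1.83 (SE 0.38), with KO replicate 4 at more than the level of either other KO library, and its reads cannot be told apart from those of Gm9954 where counting ignored strand. Ptchd2, now named Disp3 and related to the Dispatched and Patched proteins, was at 328, 448, 510.4 and 475 in WT striatum and at 677, 735 and 829.9 in KO striatum, against 997 to 1215 in cortex. Its contrast was 0.81 (SE 0.17), and it rose in KO striatum by 0.78 (adjusted p = 0.03). The fold of Ptchd2 was among the smaller ones of the positive named genes, and its SE was near the median SE over all genes (0.18).

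The remaining 2 of the 12 genes were near the floor in WT striatum. Smoc2, a secreted calcium-binding matrix protein, was at 7.96, 9.14, 30.3 and 12.7 in WT striatum and at 93.1, 49 and 158 in KO striatum, against 284 to 518 in cortex. The contrast of Smoc2 was 2.41 (SE 0.55); it overlaps 4930474M22Rik on the opposite strand. Trbc2, annotated as a T cell receptor beta constant segment, was at 1.06 to 5.61 in WT striatum and 8.47 to 18.8 in KO striatum, against 173 to 261 in cortex. Its contrast of 2.06 (SE 0.46) rests on striatal levels of a few reads.

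**Figure D3:**
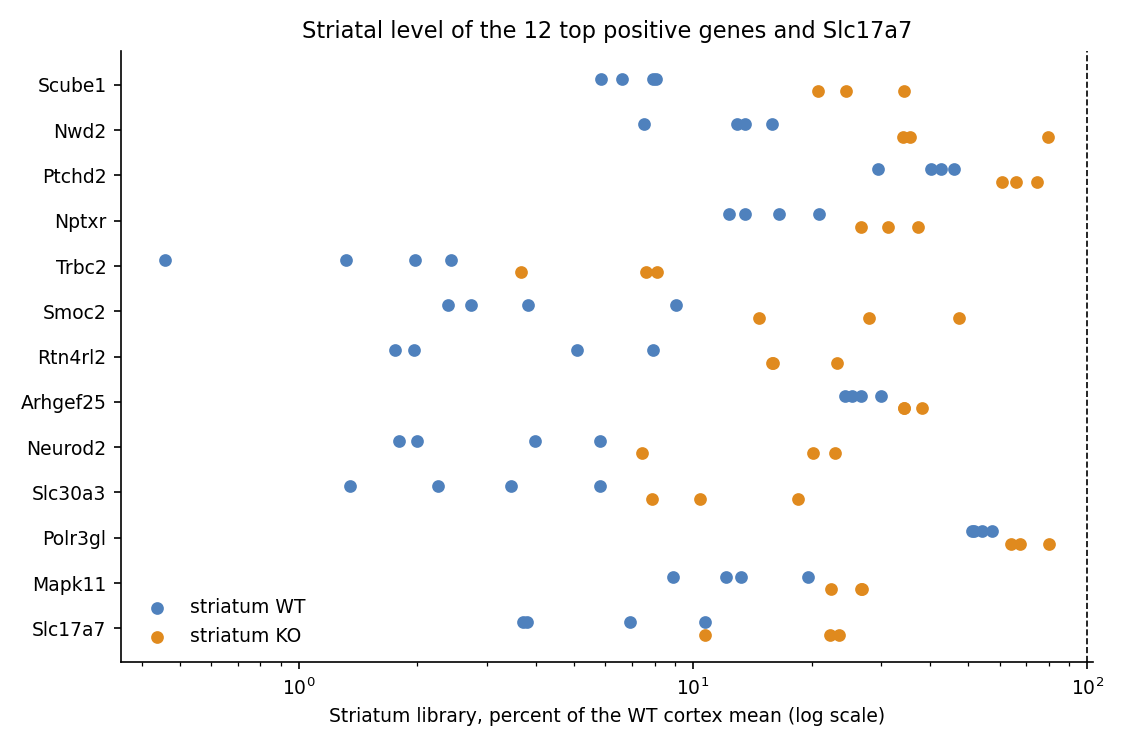
Level of each striatum library as a percent of the WT cortex mean of the same gene (log axis) for the 12 positive genes of smallest p and Slc17a7. Blue points are WT (n = 4) and orange points KO (n = 3) striatum libraries, and the dashed line is 100%; Scube1 moved from 5.86% to 8.06% in WT to 20.8% to 34.3% in KO, and the 12 genes show no overlap while Slc17a7 does.

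The 12 named genes of smallest p in the negative direction had smaller values, from -0.23 (Nus1) to -0.75 (COX3), and none was called for the contrast or in either tissue alone (adjusted p of the contrast 0.961). Ppp4r4, a regulatory subunit of protein phosphatase 4, was at 2365, 2067, 2131 and 1935 in WT striatum and at 1568, 1708 and 1773 in KO striatum, against 994 to 1370 in cortex. Its contrast was -0.49 (SE 0.12), made up of -0.33 in striatum and 0.16 in cortex. Ccnh, cyclin H of the kinase complex that acts in transcription and DNA repair, had a contrast of -0.32 (SE 0.08), with 1489 to 1647 in WT striatum and 1259 to 1315 in KO striatum. Gpr63, an orphan G protein-coupled receptor, differed from the others in that its cortex groups did not overlap (87.5 to 123 in WT, 128 to 188 in KO) while its striatum groups did, with a contrast of -0.73 (SE 0.21).

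Others of the negative genes act in ion transport and energy metabolism. COX3, a mitochondrially encoded subunit of cytochrome c oxidase, was at 121, 107, 98.7 and 84.8 in WT striatum and at 65.7, 81.4 and 79.4 in KO striatum, with 39.1 to 62.5 in cortex. Cox5b, a nuclear-encoded subunit that is not one of the 12, was at 2812 to 3266 in WT striatum and 2097 to 2689 in KO striatum. In cortex it was at 2668 to 2841 in WT and 2507 to 2634 in KO. Its groups did not overlap in either tissue, as in 8.07% of all genes for striatum and 4.02% for cortex. What share of the COX3 transcript was counted was not tested. Atp2b1, a plasma membrane calcium pump, was at 26545 to 41154 in WT striatum and 23060 to 25958 in KO striatum, with a contrast of -0.52 (SE 0.16). Kcna4, a voltage-gated potassium channel, had a contrast of -0.51 (SE 0.15), and its striatum groups overlapped (1480 to 2032 in WT, 1213 to 1523 in KO). Other genes of this set were Arpc1a (-0.30), Klhl15 (-0.30), Mfsd8 (-0.48) and Zfp943 (-0.25). Ccnh, COX3, Arpc1a, Gpr63, Mfsd8 and Zfp943 overlap other annotated genes, so their counts are uncertain to that extent. In all 12, the WT striatum mean was above the WT cortex mean, the reverse of the positive genes.

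Further genes that rose in KO striatum had contrasts that were not called. Slit2, a secreted axon guidance ligand, was at 515, 689, 542 and 711 in WT striatum and at 919.7, 1252 and 1033 in KO striatum, with a contrast of 0.67 (SE 0.17). Ptgs2, the inducible cyclooxygenase, was at 79.6, 61, 58.3 and 41.3 in WT striatum and at 185, 154 and 248 in KO striatum; its cortex difference was 0.43 and its contrast 1.27 (SE 0.33). Lrg1, a secreted leucine-rich glycoprotein of the acute-phase response, was at 2.27 to 11.2 in WT striatum and 26.3 to 58.4 in KO striatum, with a contrast of 2.45 (SE 0.64). Tnks1bp1 had the smallest contrast of this set, 0.31 (SE 0.10), on a striatal difference of 0.43. In each of these 4, the cortex difference had the same sign as the striatal one and cortex groups overlapped.

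Beyond Scube1, the Scube family and the Hedgehog pathway showed no call for the contrast. Hedgehog ligands are released with the aid of Dispatched and Scube proteins, bind Patched together with co-receptors such as Boc, Cdon and Gas1, and act through Smoothened on the Gli transcription factors. Of 24 tested genes of this list, 15 were above 0 with a median of 0.07, against 8479 of 17030 and a median of -0.00088 over all genes, and 3 were positive at an unadjusted p below 0.05. Those 3 were Scube1, Disp3 and Boc (0.47, SE 0.18). The median of this list was -0.01 with library weights and 0.19 without striatum KO replicate 2. Scube2 was at 42.1 to 139.9 in WT striatum and 48.2 to 149 in KO striatum, and Scube3 at 439 to 951 and 415 to 662, so the groups of both overlapped. Shh was at a mean of 161 and 175 in WT and KO striatum (contrast 0.15, SE 0.30), and Ptch1, a target as well as the receptor of the pathway, at 3149 and 3727 (contrast 0.12, SE 0.15). Gli1, the target gene commonly read as pathway output, had a contrast of 1.06 (SE 0.51, unadjusted p = 0.055).

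Markers of the dissected tissues are given beside these values, and their part in them was not tested. As bulk tissue was sequenced, fewer cells of a type and less RNA per cell cannot be told apart. The 8 genes used to check cortex (among them Slc17a7, Tbr1, Neurod2, Neurod6, Emx1, Fezf2 and Cux2) summed to 48447 to 55109 normalized counts in all cortex libraries, to 2142 to 5642 in WT striatum and to 5932 to 10968 in KO striatum. All 8 had a positive contrast, with a median of 1.52, and 5 had an unadjusted p below 0.05. The 8 genes used to check striatum (among them Drd1, Drd2, Adora2a, Ppp1r1b, Penk, Rgs9 and Pde10a) summed to 79804 to 177855 in WT striatum and 40029 to 92881 in KO striatum, against 6835 to 18954 in cortex. Each tissue thus carried its own markers. Every KO striatum library held more of the cortical sum of 8 genes than any WT striatum library, while the striatal sums of WT and KO overlapped. For the wider list of 41 cortical excitatory neuron markers given below, the sums overlapped in striatum. They were 80916 to 105341 in WT and 78431 to 99820.5 in KO. Of the 16 check genes, Neurod2 alone was called for KO against WT in striatum.

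Set beside Scube1, the vesicular glutamate transporter of cortical neurons, Slc17a7, was at 1275, 1308, 2379 and 3705 in WT striatum and at 8072, 3690 and 7651 in KO striatum, against 31947 to 38962 in cortex. KO replicate 3 lay just below WT replicate 8, so its striatum groups overlapped, whereas those of Neurod2, Nptxr, Slc30a3, Nptx1 and Scube1 did not. As a share of the WT cortex mean, the KO striatum libraries were at 20.8% to 34.3% for Scube1, at 10.7% to 23.4% for Slc17a7, at 7.45% to 22.9% for Neurod2 and at 26.7% to 37.2% for Nptxr. The contrast of Slc17a7 was 1.65 (SE 0.44, adjusted p = 0.961).

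The wider list of cortical excitatory neuron markers was split. Of 41 tested, 26 were above 0 with a median of 0.38, 13 were positive and 1 was negative at an unadjusted p below 0.05, and none was called. Neurod2, Nptxr, Rtn4rl2 and Trbc2, given above among the positive genes of smallest p, are members of this list. The counts therefore hold those genes again and are no separate support. The members ran from -1.33 (Crym, named after its value was seen, which was higher in WT striatum than in WT cortex) to 2.26 (Neurod2). The 15 members below 0 also held genes that were higher in WT cortex than in WT striatum. Among these, likewise named after their values were seen, were Lamp5 (-0.41, means of 5830 and 1778) and Mpped1 (-0.03, means of 5969 and 1249). Nptx1, a neuronal pentraxin, was at 811, 1445, 1757 and 1789 in WT striatum and at 4686, 2442 and 4176 in KO striatum, with a contrast of 1.37 (SE 0.34). The score of this list, the mean log2 deviation of its members from their tissue mean, was -0.48 to -0.02 in WT striatum, 0.07 to 0.55 in KO striatum and within -0.08 to 0.07 in cortex. Scores also separated the striatum groups, with KO higher, for reactive gliosis genes (-0.44 to -0.12 in WT, 0.10 to 0.37 in KO), Scube and Hedgehog genes (-0.29 to -0.03, 0.05 to 0.17), axon guidance genes (-0.29 to -0.02, 0.03 to 0.13) and glutamate receptors (-0.24 to 0.0038, 0.05 to 0.10). These lists hold genes of low p or called in striatum: Lrg1, Scube1 and Disp3, Rtn4rl2 and Slit2, and Nptxr and Nptx1. How far those genes carry the separation was not tested. Axon guidance scores also separated the cortex groups (WT up to 0.0021, KO from 0.0024). Glutamate receptor scores did too (WT up to -0.0026, KO from -0.0018). The cortex groups, but not the striatum groups, were also separated by cholesterol synthesis and ependymal scores. Cholesterol synthesis scores were lower in KO cortex (WT from 0.02, KO up to -0.03), and ependymal scores higher (WT up to 0.08, KO from 0.11). Reactive gliosis medians for KO minus WT were 0.26 in striatum and 0.27 in cortex. The cortex value leaned on KO replicate 2, with a score of 0.81 against -0.21, 0.18 and -0.12 in KO replicates 1, 3 and 4. Without that library the median contrast of the reactive gliosis list was 0.21. The median contrast of the cortical marker list kept its sign in 32 of 32 alternatives but was 0.05 when only genes at 10 or more in every library were kept.

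Markers of striatal projection neurons lay on the other side. Of 39 tested, 4 were above 0, the median was -0.42, and 2 were negative at an unadjusted p below 0.05. These 2 were Arpp21 and Arpp19, phosphoproteins regulated by cAMP that are abundant in these neurons. Arpp21 was at 38355, 26802, 31572 and 18066 in WT striatum and at 17758, 21656 and 8728 in KO striatum, so the groups overlapped, and its contrast was -0.81 (SE 0.36, adjusted p = 0.961). The difference in striatum had a median of -0.77 and that in cortex -0.27. Striatum KO replicate 4, at -1.05, and striatum WT replicate 8, at -0.20, had the lowest list scores of their groups. Without striatum KO replicate 4 and striatum WT replicate 5 together the median was 0.0012.

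**Figure D4:**
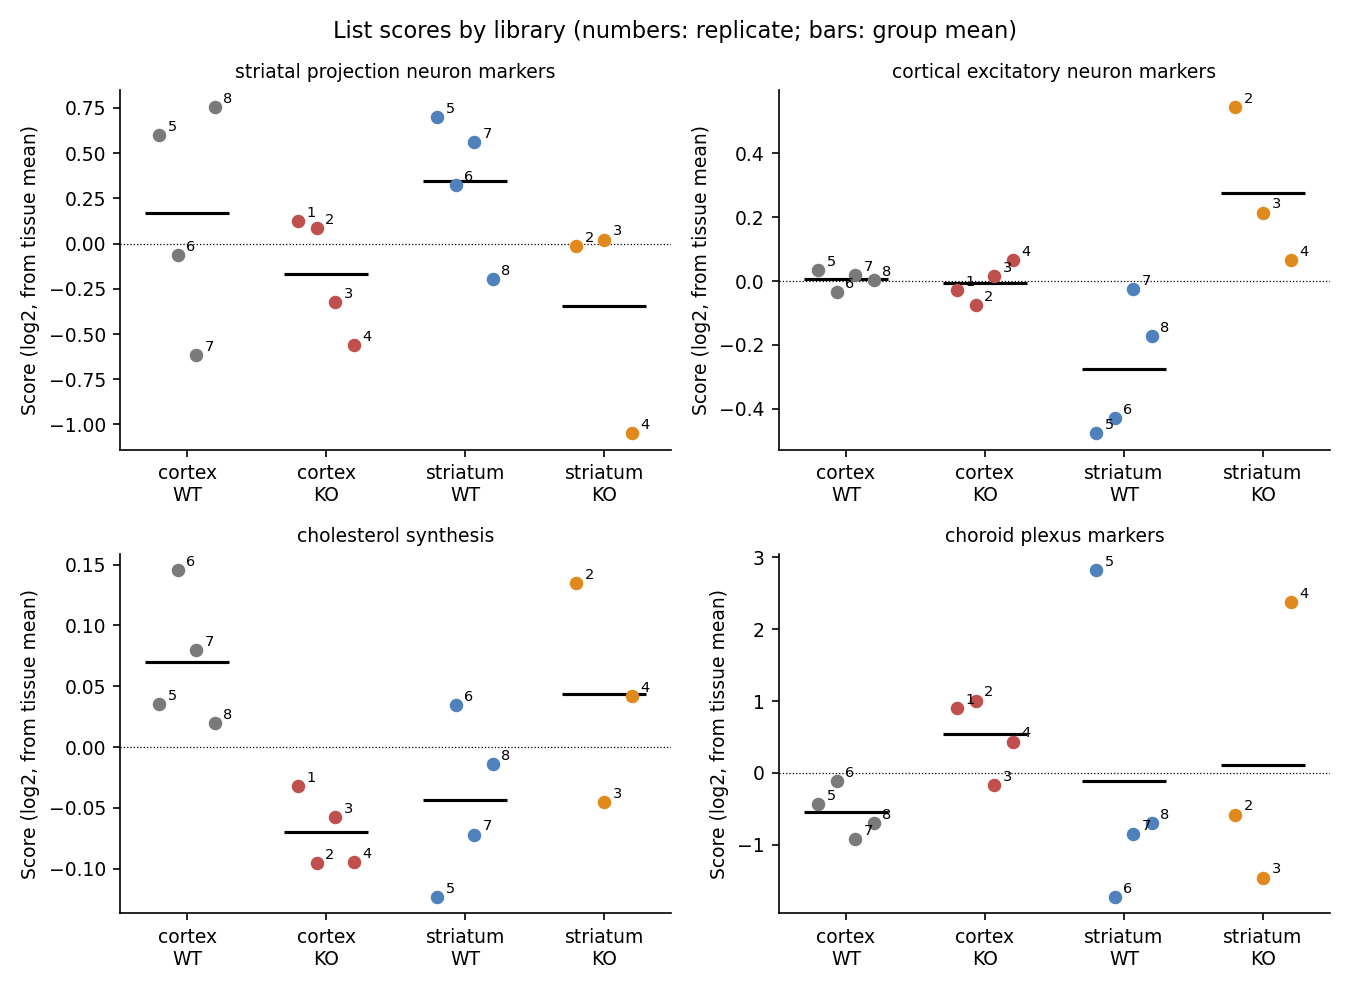
Score of 4 gene lists in each library, the mean log2 deviation of list members from their mean in that tissue. Points are libraries with their replicate numbers and bars group means (n = 4, and 3 for striatum KO); the striatum groups do not overlap for cortical excitatory markers (-0.48 to -0.02 and 0.07 to 0.55), as for 4 other lists and the cortex check genes, not drawn, and striatum WT replicate 5 and KO replicate 4 stand high in choroid plexus markers.

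Cholesterol synthesis was the list with the largest share of members above 0 among the metabolic lists, and its members were close together. Of 29 tested, 27 were above 0 with a median of 0.19, and 11 were positive at an unadjusted p below 0.05, with none called. Reads of Fdps could be shared with overlapping predicted genes. The contrast combined a median of 0.06 in striatum and -0.12 in cortex, where 3 of 29 members were above 0. Fdps, farnesyl diphosphate synthase, which acts upstream of the first sterol, was at 92.3, 105, 84.1 and 83.2 in cortex WT and at 93.3, 77.7, 78.7 and 57.8 in cortex KO. In striatum it was at 50, 50.8, 47.1 and 54.1 in WT and at 84.3, 86.6 and 61.4 in KO. The striatum groups of Fdps did not overlap and its cortex groups did, with differences of 0.59 and -0.25 and a contrast of 0.85 (SE 0.23, adjusted p = 0.961). For the score of the whole list the reverse held. Its cortex groups did not overlap (0.02 to 0.15 in WT, -0.10 to -0.03 in KO). Its striatum groups did (-0.12 to 0.03 in WT, -0.05 to 0.14 in KO). The median of the list stayed between 0.16 and 0.26 over 32 alternatives.

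Lists of amino acid transport and serine metabolism, the processes closest to ASCT1, had medians near 0. Of 34 tested neutral and acidic amino acid transporters, 23 were above 0 with a median of 0.08, and 1 had an unadjusted p below 0.05. That member was Slc7a6, a transporter of cationic and neutral amino acids, at 412 to 482 in WT striatum and 452 to 528 in KO striatum, with a contrast of 0.23 (SE 0.11). Slc36a1, a proton-coupled transporter of small amino acids, had a contrast of 0.28 (SE 0.14). Of 33 tested genes of serine, glycine and one-carbon metabolism, 12 were above 0 with a median of -0.07, and none had an unadjusted p below 0.05. Dld, the dihydrolipoamide dehydrogenase shared with the glycine cleavage system, had a contrast of -0.14 (SE 0.08), and Cth, cystathionine gamma-lyase, one of -0.36 (SE 0.22). The list of glutamate receptors and auxiliary subunits spread more widely. Of 38 tested, 16 were above 0 with a median of -0.03, 4 were positive and 2 negative at an unadjusted p below 0.05, and values ran from -0.52 to 1.37.

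Activity-regulated genes held a few high values around a median near 0. Of 44 tested, 16 were above 0, the median was -0.09 and 3 were positive at an unadjusted p below 0.05. KO minus WT had a median of 0.06 in striatum (25 of 44 above 0) and 0.21 in cortex (39 of 44). Bdnf, brain-derived neurotrophic factor, was at 23.9, 101, 127 and 156 in WT striatum and at 463, 291 and 368 in KO striatum, against 682 to 1173 in cortex. The cortex groups of Bdnf did not overlap either (682 to 899 in WT, 969 to 1173 in KO), and its contrast was 1.75 (SE 0.59, adjusted p = 0.961). Among 32 tested reactive gliosis and acute-phase genes, 18 were above 0 with a median of 0.06, and 2 were positive at an unadjusted p below 0.05. Timp1, an inhibitor of matrix metalloproteinases, had no reads in any WT striatum library and was at 49.3, 3.13 and 9.53 in KO striatum. Timp1 overlaps the neuronal gene Syn1 on the opposite strand, and Bdnf and Slit2 overlap predicted genes. Among 49 tested axon guidance genes, 24 were above 0 with a median of -0.02, but 7 were positive and 1 negative at an unadjusted p below 0.05, and the highest value was 2.22, for Rtn4rl2.

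Glial and vascular markers had medians below 0. The median was -0.22 for oligodendrocyte and myelin markers (2 of 31 above 0), -0.14 for microglia and macrophage markers (5 of 31), -0.13 for endothelial and pericyte markers (8 of 31), -0.08 for oligodendrocyte precursor markers (6 of 17) and -0.02 for astrocyte markers (11 of 31). Cd53, a microglial tetraspanin, was at 300.3, 325, 333 and 273 in WT striatum and at 261, 237 and 232 in KO striatum, with a contrast of -0.42 (SE 0.14, adjusted p = 0.961). Without striatum KO replicate 3 the median of the oligodendrocyte list was 0.01 and that of the astrocyte list 0.04. Nuclear-encoded respiratory chain subunits had a median of -0.08, with 8 of 73 above 0, and 0.02 without striatum KO replicate 3. Their KO minus WT difference was mostly below 0 in both tissues. It had a median of -0.19 in striatum (0 of 73 above 0) and -0.12 in cortex (1 of 73). Cox5b, a cytochrome c oxidase subunit, had a contrast of -0.20 (SE 0.11).

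Choroid plexus markers had the lowest median, -0.73, with 0 of 23 above 0 and none at an unadjusted p below 0.05. The choroid plexus lies in the brain ventricles, which border the striatum, and the list varied by library within striatum. The contrast combined a median of 1.19 in cortex, where 23 of 23 members were higher in KO by group mean, and 0.25 in striatum, where 15 of 23 were; none was called in either tissue. Sostdc1, a secreted antagonist expressed there, was at 992, 38.6, 57.2 and 81.6 in WT striatum and at 74.5, 42.8 and 574 in KO striatum. In cortex it was at 9.14 to 20 in WT and 18.8 to 51.5 in KO. The list score was 2.82 in striatum WT replicate 5 and 2.38 in striatum KO replicate 4, and below 0 in the other 5 striatum libraries. The median contrast was 0.12 without striatum WT replicate 5. Thalamic, septal, pallidal and hypothalamic markers had a median of 0.22 (19 of 34 above 0), and -0.22 without the same library. Ependymal and meningeal markers had medians of -0.07 (14 of 31 above 0) and -0.13 (9 of 30), and interneuron and cholinergic markers 0.09 (16 of 30).

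**Figure D5:**
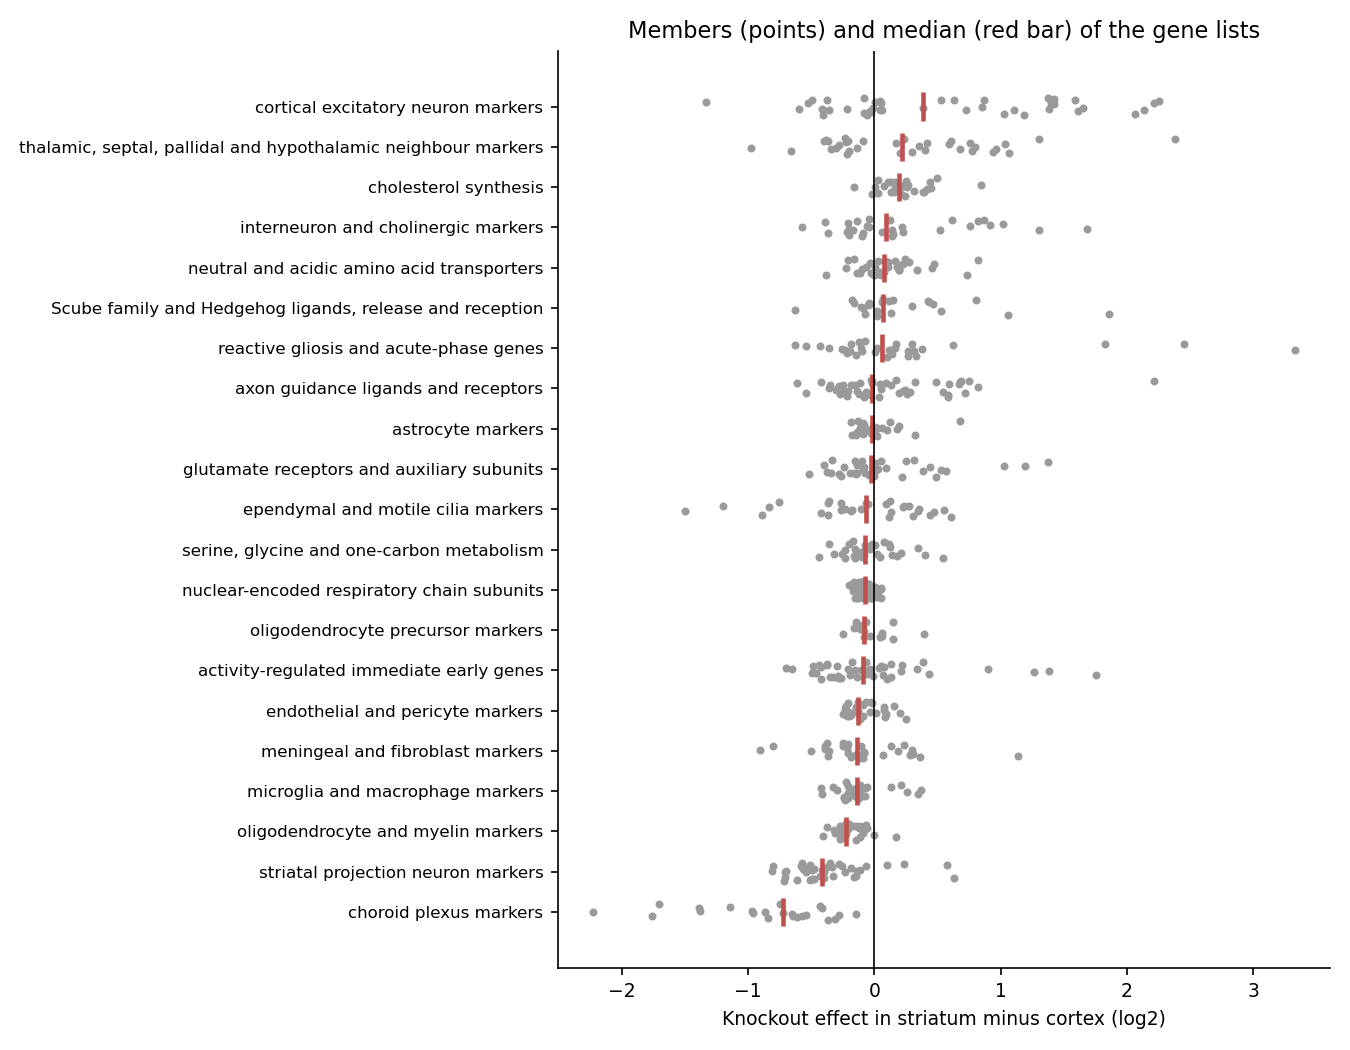
Knockout effect in striatum minus cortex (log2) for the tested members of 21 gene lists, 1 point per gene, with the list median as a red bar. Medians run from -0.73 (choroid plexus markers) to 0.38 (cortical excitatory neuron markers), and the median over all genes tested is -0.00088.

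Across the 17030 genes, the knockout effects of both tissues, which come from different libraries, had a Pearson r of 0.271 and a Spearman coefficient of 0.28. Genes are not independent replicates, and these coefficients describe the tables only.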

How the data were processed

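RNA was extracted from cerebral cortex and striatum and made into NEBNext Ultra libraries from total RNA, per the labels' protocols, and sequenced as single-end reads. Per the submitters' processing notes, the build was GRCm38 and the tools included TopHat2 2.1.1 and HTSeq 0.6.0, with DESeq2 1.12.4, FastQC 0.11.5 and cutadapt 1.1 (no roles or order given); the annotation release and strand setting are not given in the sources used here. The authors deposited 1 table of normalized counts (signal: read counts divided by a size factor per library). Dividing by each library's smallest step gave whole reads for 100% of values within 0.001 (largest deviation 5.2e-05); depth is the sum of these reads.

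The deposited values were analysed as log2(value + 1) with limma 3.58.1 (R 4.3.3; 4 group means, trended variance, 11 residual degrees of freedom), keeping genes at 10 or more in at least 3 libraries, with Benjamini-Hochberg adjustment over 17030 genes. Alternatives were edgeR 4.0.16, DESeq2 1.42.0 and limma-voom on recovered reads, other pseudocounts, filters, scalings, weights and blocks, and leaving out libraries. The code was tested on simulated data. Of 7645 genes without a symbol in the table, 7402 were named from GENCODE M21. Figures were drawn with matplotlib 3.10.9.

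The named genes are those called for the contrast or for KO against WT in either tissue, the 12 positive and 12 negative genes of smallest p with a mean of at least 20 (predicted genes left out), up to 4 called or the 2 lowest-p members of each list, Scube1 and Slc1a4; Scube and Hedgehog genes beyond these are given by role. Some genes taken by this rule are not reported here. Members and lists were chosen with earlier results of these data known, and support nothing independently.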

Additional observations from a re-analysis of the deposited data

Results flagged for a closer look

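Scube1 was singled out because its knockout effect differed between the tissues by a test of the difference itself, with a value of 1.86 on the log2 scale. It was higher in 3 of 3 KO striatum libraries than in all WT striatum libraries.

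In 14 of 255 groups of 4 libraries (5.49%) the highest or lowest library stood far from the other 3; chance gives about 1 in 20. Cortex KO replicate 2 was such a library for 5 genes. It held 308 normalized counts of the deleted gene Slc1a4 where the others held 249 to 252, 1024 of Itih3 (others 624 to 637), 54.3 of Timp1 (4.67 to 8.95), 109 of Zic5 (98.9 to 100.4) and 173 of Trbc2 (204 to 209). Cortex KO replicate 3 was high for Slc7a6 at 687 (others 631 to 637) and low for Sostdc1 at 18.8 (49.3 to 51.5). Among cortex WT libraries, replicate 7 was high for Spp1 at 257 (144 to 159.7), and replicate 5 was low for Xylt1 at 581 (639.7 to 649.9). In striatum WT, replicate 5 was high for Sostdc1 at 992 (38.6 to 81.6).

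Among list scores, striatum WT replicate 5 was low for glutamate receptors at -0.24 (others -0.02 to 0.0038) and for axon guidance genes at -0.29 (-0.04 to -0.02). Cortex WT replicate 7 was low for oligodendrocyte and myelin markers at -0.53 (0.14 to 0.24), and cortex WT replicate 6 was high for the 8 genes used to check cortex at 0.0115 (-0.0327 to -0.0253).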

How the results depend on the processing

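Scube1 stayed positive in all 32 alternatives run and was called in 31 (1.63 to 2.02, adjusted p up to 0.129); the exception was the fixed replicate block, where it was 1.89 and the number of genes called was 0. The labels do not say what the shared replicate numbers mark. Of 7 same-numbered pairs of cortex and striatum deviations, 5 had a correlation above 0.1 (-0.00046 to 0.243 over 12296 genes) and 6 correlated best with their own number, a hint of pairing from the data, not the design. As a random effect the block left 1 call. DESeq2 called 15 genes (15 higher), among them Rtn4rl2, Nwd2 and Neurod2, and library weights called 4 (4 higher). Leaving out 1 library gave 1 to 8 calls, none lower: 8 without striatum KO replicate 4, 3 without striatum WT replicate 7, and 2 without striatum KO replicate 2 or 3. Without striatum KO replicate 4 and WT replicate 5 together 19 genes were called (18 higher, 1 lower). Without striatum KO replicate 4 and WT replicate 8 together 26 were called (20 higher, 6 lower). The cause of these shifts was not tested. The Slc1a4 interaction (the contrast between the tissues), within its error of 0, turned to -0.05, -0.16 and -0.09 without striatum WT replicate 5, KO replicate 2 and KO replicate 3, was at most 0.40, and was -0.0040 with transcript length and GC trends removed, an alternative chosen after seeing the data, as was weighting by tissue. Median centring moved the median of all genes to -0.04.

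With 3 KO striatum libraries and a median standard error of 0.18, small differences between the tissues were not detectable. Striatal levels of a few reads limit Trbc2, Lrg1 and Timp1.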
